A study of Mus musculus with 6 samples.

Results

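The 10 genes described here encode the core of the elastic fibre (Eln, Fbn1, Fbn2, Fbln1, Fbln2, Fbln5 and Mfap4) and 3 small leucine-rich proteoglycans (Dcn, Lum and Bgn). They were chosen by name, and all 10 were found among the 14495 genes of the count table. Elastic fibres give the ventricle wall and its vessels recoil: tropoelastin is laid down and cross-linked on a scaffold of fibrillin microfibrils, with fibulins and microfibril-associated proteins joining the parts. Small leucine-rich proteoglycans are secreted proteins that bind fibrillar collagen, set how collagen fibrils pack, and hold growth factors of the TGF-beta family. In the heart most of these genes are known as products of fibroblasts, with elastin and fibulins also made by vascular smooth muscle.

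Ventricular messenger RNA of newborn C57BL/6 males (day 1 after birth, P1) was compared with that of males of the same strain on day 14 (P14). No mice were described as treated or mutant. Each age had 3 libraries, each from 3 pooled hearts, so 9 hearts stood behind an age and the spread between libraries is a spread between pools. The tissue protocol describes ventricles with the septum and without atria, whereas the tissue label names the left ventricle. Total counts ran from 5916557 (P1 replicate 3) to 17353933 (P1 replicate 1). All 8 genes listed as ventricular cardiomyocyte markers were present. They summed to 57536 to 60387 CPM (counts scaled to a common library size) at P1 and 77631 to 97011 at P14. The 4 genes listed as atrial markers summed to 774 to 1634 CPM at P1 and 421 to 567 at P14. Whether these sums measure the chambers sampled was not tested. Libraries were scaled by the trimmed mean of M-values (TMM).

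From P1 to P14 the transcripts of Mfap4, Dcn and Fbln1 rose 3.96-fold, 2.52-fold and 2.40-fold, and that of Fbn2 fell 4.33-fold. The other 6 genes, among them Eln and Bgn, did not pass the test. The words rose and fell are kept for genes that passed the quasi-likelihood test of edgeR, with p-values adjusted over 14301 tested genes and a threshold of 0.05. All 10 members passed the filter on low counts and were tested. Of these, 4 were called, against 43.8% of all genes tested; 3 were higher, against 21.8% of all genes, and 1 was lower, against 22% of all genes. The share of called members thus lay near the background. In 7 of the 10 genes the ranges of the ages were separate, as in 54.8% of all genes tested. With the replicate number as a block 5 members were called, against 48.9% of all genes, and 4 of them were higher, against 24.9%. Without P1 replicate 2, 5 members were higher, against 23.9% of all genes tested. The median log2 fold change (P14 over P1) of the 10 genes was 0.47, beside −0.01 over all genes tested. With scaling by library totals only, the median of all genes moved to −0.47 and that of the members to 0.004, and the same 4 genes were called.

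**Figure D1:**
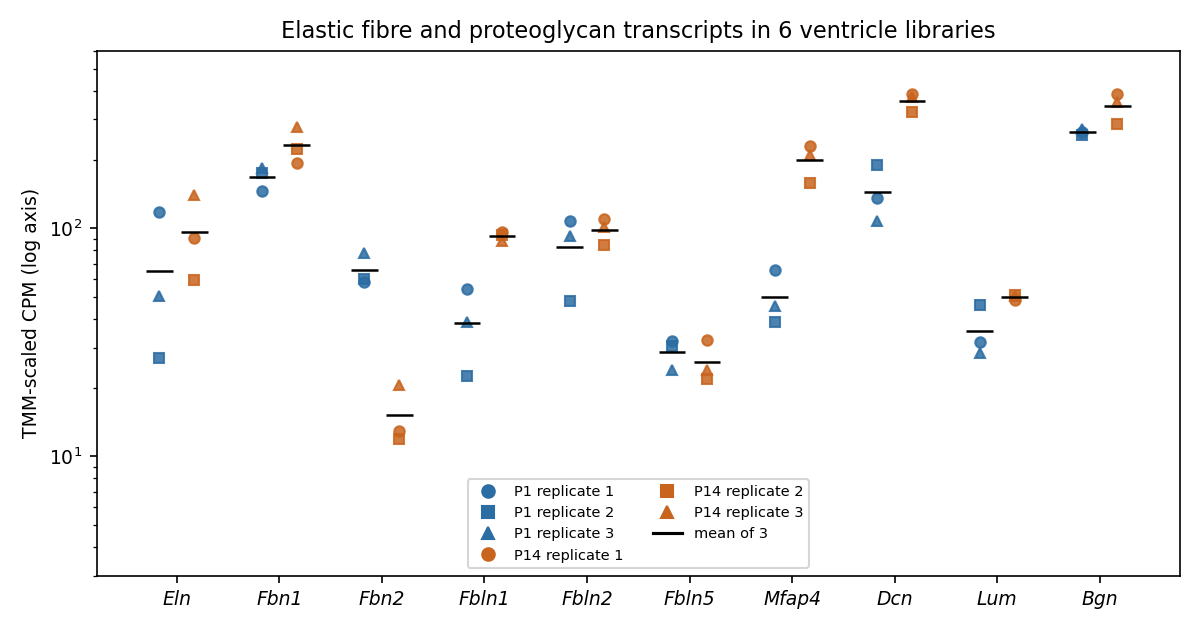
TMM-scaled CPM (log axis) of the 10 genes in each library, with P1 in blue, P14 in orange, 1 symbol shape per replicate number and a bar at the mean of 3 libraries. Mfap4, Dcn and Fbln1 lie higher at P14 and Fbn2 lower without overlap, while the 3 P1 libraries range from 27.1 to 118 CPM for Eln.

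Elastin itself varied more within an age than between ages. Eln (ENSMUSG00000029675; chromosome 5, 134702593 to 134747323, GRCm38, GENCODE M21), which encodes tropoelastin, the protein that gives the fibre its recoil, had 118, 27.1 and 50.5 CPM in P1 replicates 1 to 3 and 90.5, 59.1 and 140.4 CPM in P14 replicates 1 to 3. The ages overlapped, with P1 replicate 1 above 2 of the 3 P14 libraries and P1 replicate 2 the lowest of all. Its log2 fold change was 0.56 ± 0.60 (SE; edgeR adjusted p = 0.496). Without P1 replicate 1 the log2 fold change was 1.33 and passed (edgeR adjusted p = 0.0124). It was 0.18 without P1 replicate 2, 0.20 without P14 replicate 3 and 0.088 with totals alone, none of which passed, and over all alternatives the adjusted p ran from 0.0124 to 0.930.

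Of the 2 fibrillins Fbn2 fell and Fbn1 did not pass. Fibrillins are the large glycoproteins that form microfibrils, and Fbn2 is known as the form used early in development. Fbn2 (ENSMUSG00000024598; chromosome 18, 58008623 to 58210487) had 58.2, 59.7 and 78.3 CPM at P1 and 12.9, 11.9 and 20.5 CPM at P14. Every P14 library lay below every P1 library, and mean levels were 65.4 ± 11.2 and 15.1 ± 4.66 CPM (SD, n = 3), for a log2 difference of −2.11 ± 0.24 (SE; edgeR, adjusted p = 1.15e-05). Fbn1 (ENSMUSG00000027204; chromosome 2, 125300594 to 125507993), the form that persists in adult tissue, had 146, 174 and 184 CPM at P1 and 193, 222 and 278 CPM at P14. Its ages did not overlap either, yet its log2 fold change of 0.46 ± 0.20 did not pass (edgeR adjusted p = 0.0821). The test was passed without P1 replicate 2 (0.0445) or without P14 replicate 1 (0.0473), while with totals alone the log2 fold change of Fbn1 was 0.0016, and over all alternatives the edgeR or DESeq2 adjusted p ran from 0.0445 to 0.996.

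A ratio of counts within a library does not depend on how libraries are scaled. Fbn2 made up 28.5%, 25.5% and 29.9% of the fibrillin counts (Fbn1 plus Fbn2) in the P1 libraries and 6.29%, 5.10% and 6.86% in the P14 libraries. The count ratio of Fbn1 to Fbn2 was 2.51, 2.92 and 2.35 at P1 and 14.9, 18.6 and 13.6 at P14. Its geometric mean was thus 6.03 times as high at P14 (log2 difference 2.59, exact two-sided permutation p = 0.1, adjusted over 5 pairs 0.125). With 3 libraries against 3 the smallest p that this test can give is 0.1, so no pair could pass. Of the 36-base windows of the Fbn1 transcripts 80.2% occurred in no other gene, with the rest shared mainly with Gm9913, an annotated gene on the opposite strand, and of those of Fbn2 99.1%. The sources used here do not say if strand was used in counting. Exons of Eln, Fbn2 and Mfap4 also overlap annotated genes on the opposite strand (Gm30003, Gm26507 and Mapk7), but at least 96.5% of the windows of these 3 genes were unique.

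Among the fibulins, which bridge elastin, microfibrils and basement membranes, Fbln1 changed and the other members did not pass. Fbln1 (ENSMUSG00000006369; chromosome 15, 85205949 to 85286535) had 54.0, 22.5 and 38.9 CPM at P1 and 95.9, 93.1 and 88.0 CPM at P14. All P14 libraries were above all P1 libraries and close to each other, and mean levels were 38.5 ± 15.7 and 92.3 ± 4.04 CPM (log2 difference 1.26 ± 0.27, edgeR adjusted p = 0.00179). Fbln2 (ENSMUSG00000064080; chromosome 6, 91212455 to 91272540), a fibulin of basement membranes and the embryonic endocardial cushions, had 108, 47.9 and 92.1 CPM at P1 and 109.7, 84.0 and 102 CPM at P14. These ages overlapped, and the log2 fold change was 0.26 ± 0.26 (edgeR adjusted p = 0.455). Its sign turned without P1 replicate 2 (−0.024) and with totals alone (−0.18). Fbln5 (ENSMUSG00000021186; chromosome 12, 101746565 to 101819055), which binds tropoelastin and is needed to assemble elastic fibres, had 32.0, 30.5 and 23.9 CPM at P1 and 32.4, 21.8 and 24.0 CPM at P14, again with overlap (log2 fold change −0.15 ± 0.22, edgeR adjusted p = 0.621). The ratio of Fbln1 to Fbln2 counts went from 0.501, 0.470 and 0.422 at P1 to 0.874, 1.11 and 0.866 at P14. Its geometric means differed 2.03-fold (exact permutation p = 0.1, adjusted 0.125).

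Promoter sequences are shown for Fbln1, which rose, beside Fbln5 and Bgn, which did not pass. They are the members for which the RefSeq promoter table (GRCm38.p6) holds a start whose 250 bases upstream are clear of annotated exons; the table also lists Fbn1 and Fbln2, so 5 of the 10 members matched (not Eln, Fbn2, Mfap4, Dcn and Lum). The windows are chr15:85205699-85205948 (plus strand), chr12:101819120-101819369 (minus strand) and chrX:73483351-73483600 (plus strand), each printed 5′ to 3′ on the gene's strand and ending at the base before the start. Capitals mark matches, on either strand, to the GC box GGGCGG, the CCAAT box, the Smad-binding letters CAGAC, the TATA box TATAAA or the AP-1 letters TGACTCA.
Fbln1: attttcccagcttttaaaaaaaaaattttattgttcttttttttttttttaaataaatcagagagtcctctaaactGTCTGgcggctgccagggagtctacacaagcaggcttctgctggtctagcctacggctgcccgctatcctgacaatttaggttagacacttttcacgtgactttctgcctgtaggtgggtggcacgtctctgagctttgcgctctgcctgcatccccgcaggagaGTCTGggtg
Fbln5: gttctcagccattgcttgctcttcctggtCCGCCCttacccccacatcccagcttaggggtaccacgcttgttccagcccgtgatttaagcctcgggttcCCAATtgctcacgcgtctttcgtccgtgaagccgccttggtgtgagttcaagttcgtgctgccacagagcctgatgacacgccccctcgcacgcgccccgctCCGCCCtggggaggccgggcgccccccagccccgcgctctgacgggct
Bgn: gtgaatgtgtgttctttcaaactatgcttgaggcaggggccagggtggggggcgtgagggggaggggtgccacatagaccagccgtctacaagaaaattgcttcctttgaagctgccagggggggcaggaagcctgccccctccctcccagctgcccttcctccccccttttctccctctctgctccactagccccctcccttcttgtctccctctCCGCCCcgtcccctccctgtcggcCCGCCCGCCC
Fbln1 held CAGAC 2 times, both as the reverse complement, at 174 and 9 bases before the start, and no GC box. Fbln5 held 2 GC boxes, at 221 and 48 bases before the start, and CCAAT at 150 bases. Bgn held 3 GC boxes, at 34, 10 and 6 bases, of which the last 2 overlap. TATAAA and TGACTCA were in none of these windows. A further start is listed for Fbln1 and for Fbln5, with a window that overlaps annotated exons and is not printed. There Fbln1 held 1 GC box and CAGAC 2 times, and Fbln5 held CAGAC 2 times and no GC box. The 2 windows of Fbln1 overlap. Its CAGAC matches, at 233 and 68 bases before the further start, are the same 2 sites as in the printed window. The matches of Fbln5 and the GC box of Fbln1 thus depend on the start used. Among all 32851 windows of the same length 32.7% held the GC box, 33.8% CCAAT, 42.2% CAGAC, 12.4% TATAAA and 4.46% TGACTCA. These matches describe the letters of the windows and were not tested against the expression values.

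Mfap4, a microfibril-associated glycoprotein that binds elastin and fibrillin, had the largest rise of the 10 genes. Mfap4 (ENSMUSG00000042436; chromosome 11, 61485431 to 61488900) had 65.9, 38.9 and 45.6 CPM at P1 and 229, 159 and 210.3 CPM at P14. The lowest P14 library was above the highest P1 library, and mean levels were 50.2 ± 14.0 and 199 ± 36.3 CPM (log2 difference 1.99 ± 0.24, edgeR adjusted p = 1.62e-05).

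Of the proteoglycans, decorin rose. Dcn (ENSMUSG00000019929; chromosome 10, 97479609 to 97518143) encodes decorin, which coats collagen fibrils and binds TGF-beta. It had 136, 189 and 107 CPM at P1 and 389, 324 and 376 CPM at P14, with every P14 library above every P1 library. Mean levels were 144 ± 41.5 and 363 ± 34.2 CPM (log2 difference 1.33 ± 0.23, edgeR adjusted p = 0.000324). Lum (ENSMUSG00000036446; chromosome 10, 97565128 to 97572703) encodes lumican, another collagen-binding proteoglycan, and lies 46984 bases beyond Dcn on the same strand. Lum had 31.8, 46.2 and 28.3 CPM at P1 and 48.3, 51.1 and 50.5 CPM at P14. The ages did not overlap, but P1 replicate 2 came close to P14, and the log2 fold change of 0.49 ± 0.21 did not pass (edgeR adjusted p = 0.0771). With the replicate number as a block Lum passed (log2 fold change 0.52, edgeR adjusted p = 0.0342), as it did without P1 replicate 2 (0.73, adjusted p = 0.00234), and over all alternatives the adjusted p ran from 0.000103 to 0.988. The Dcn to Lum count ratio was 4.27, 4.08 and 3.79 at P1 and 8.04, 6.34 and 7.44 at P14, with separate ranges (exact permutation p = 0.1, adjusted 0.125).

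Biglycan, the closest relative of decorin in this set, did not pass. Bgn (ENSMUSG00000031375; chromosome X, 73483602 to 73495933) had 264, 255 and 272 CPM at P1 and 387, 287 and 357 CPM at P14. All P14 libraries were above all P1 libraries, and the log2 fold change of 0.38 ± 0.19 did not pass (edgeR adjusted p = 0.124); with totals alone its sign turned (−0.068). At P1 Bgn counts exceeded Dcn counts in all 3 libraries, with Dcn to Bgn ratios of 0.515, 0.740 and 0.394. At P14 the counts of these genes were nearly equal, with ratios of 1.00, 1.13 and 1.05, and the log2 ratio differed by 1.00 between ages (exact permutation p = 0.1, adjusted 0.125). By contrast the Eln to Fbn1 ratio overlapped between ages, from 0.155 to 0.807 at P1 and from 0.266 to 0.505 at P14 (exact permutation p = 0.8).

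**Figure D2:**
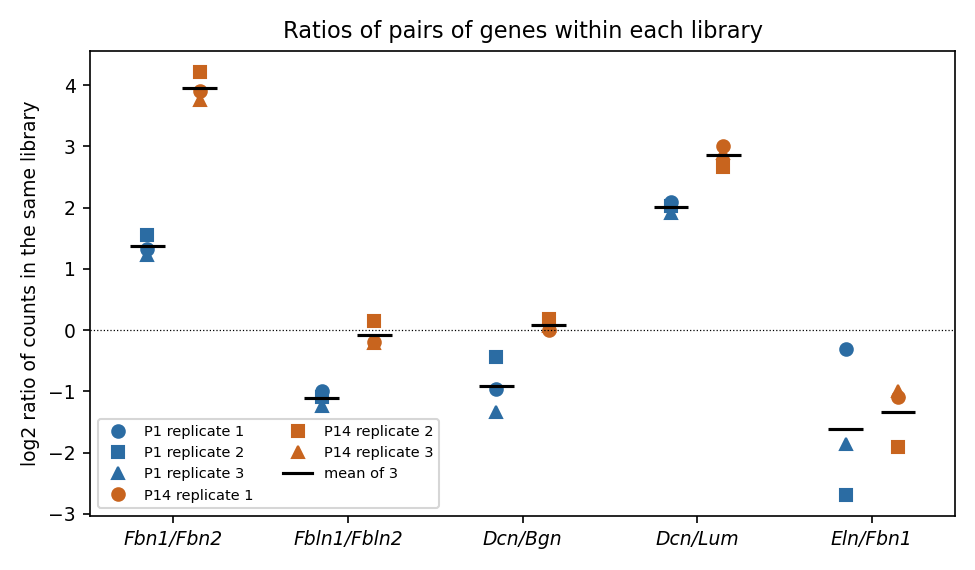
Log2 ratio of the counts of 2 genes in the same library (y axis) for 5 pairs, P1 in blue and P14 in orange, with a bar at the mean of 3 libraries. The Fbn1/Fbn2, Fbln1/Fbln2, Dcn/Bgn and Dcn/Lum ratios are higher at P14 without overlap, and Eln/Fbn1 overlaps.

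Levels of different genes are compared per kilobase of merged exon. At P1 the highest level was that of Bgn (43.2 ± 1.38 CPM per kilobase, SD, n = 3), apart from all others, followed by Mfap4 (26.1 ± 7.31) and Dcn (24.7 ± 7.10). The remaining genes followed as Lum, Fbn1, Fbln2, Fbln1, Eln, Fbn2 and Fbln5, from 14.5 down to 4.17 CPM per kilobase, and from Mfap4 downward each gene's range overlapped that of the next. At P14 Mfap4 led with 104 ± 18.9 CPM per kilobase, above Dcn (62.2 ± 5.86) without overlap, and Dcn and Bgn (56.3 ± 8.42) overlapped. Fbln1 (21.1), Lum (20.4), Fbn1 (19.1), Fbln2 (15.5) and Eln (11.9) came next, each overlapping the next. Fbln5 (3.77) and Fbn2 (1.14 ± 0.353) stood apart at the bottom, in that order. The order depends on the length used for Bgn, whose merged exons span 6.10 kilobases and whose longest transcript spans 2.67. Per kilobase of longest transcript Bgn led at both ages (98.9 at P1 and 129 at P14), ahead of Dcn (30.7) at P1 and of Mfap4 (113) at P14, the latter with overlap, and Eln was the fifth at both ages in place of the eighth.

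**Figure D3:**
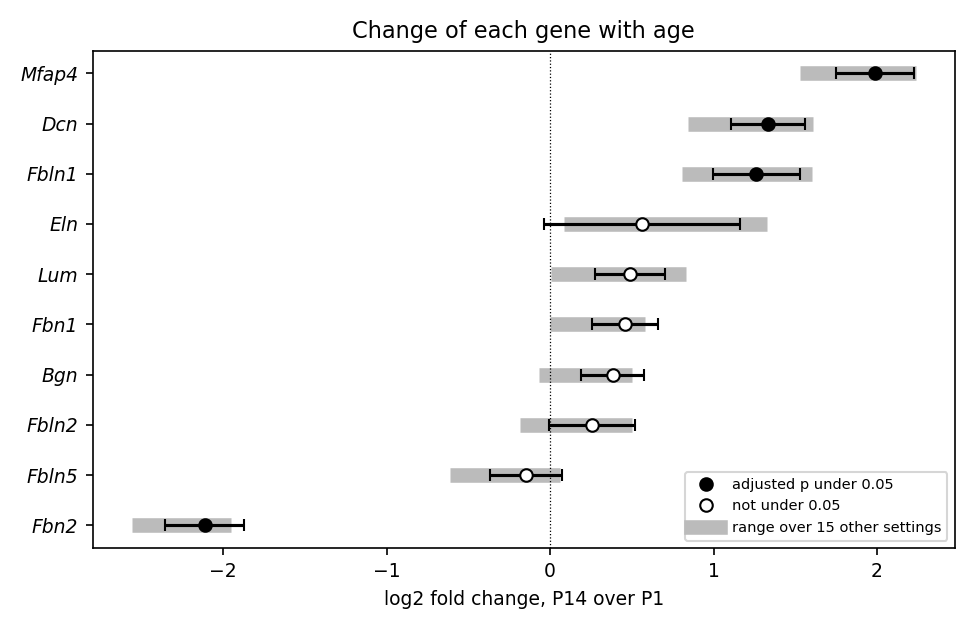
Log2 fold change of P14 over P1 with its SE for each gene (filled where the adjusted p is under 0.05), and the range over 15 other settings in grey. Mfap4, Dcn and Fbln1 stay above 0 and Fbn2 stays below 0 over the whole range, while the ranges of Bgn, Fbln2 and Fbln5 cross 0.

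In P1 replicate 2 the deviations of the members from their P1 mean followed base composition. The members' transcripts have GC contents from 37.4% (Dcn) to 58.8% (Eln). In P1 replicate 2 the deviation ran from 0.43 on the log2 scale for Dcn and 0.41 for Lum to −0.68 for Fbln1, −0.70 for Fbln2 and −1.003 for Eln. The largest single deviation was that of Eln in P1 replicate 1 (1.11). Over the 10 genes the deviation in P1 replicate 2 and the GC content had a Pearson r of −0.90, beside 0.64 and 0.73 in P1 replicates 1 and 3 and −0.47 to 0.45 in the P14 libraries. The points share a library, and deviations within an age sum to 0, so no p is given. When each library was corrected for transcript GC content and length, an alternative chosen after the data were seen, the log2 fold changes of Dcn (1.61), Mfap4 (1.86), Fbln1 (1.09) and Fbn2 (−2.38) kept their calls. The correction was fitted to deviations from the mean of all 6 libraries. It thus also removes differences between ages that follow GC content or length, not only the deviations in P1 replicate 2. With that correction Lum (0.83, edgeR adjusted p = 0.000225) and Bgn (0.45, edgeR adjusted p = 0.0203) passed as well, so 5 members were higher, against 26.6% of all genes tested (27.7% and also 5 members with the replicate block added). The log2 fold change of Eln was 0.18 and that of Fbn1 0.18, neither of which passed (edgeR adjusted p = 0.799 and 0.331). For Bgn the adjusted p over all alternatives ran from 0.0203 to 0.842.

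**Figure D4:**
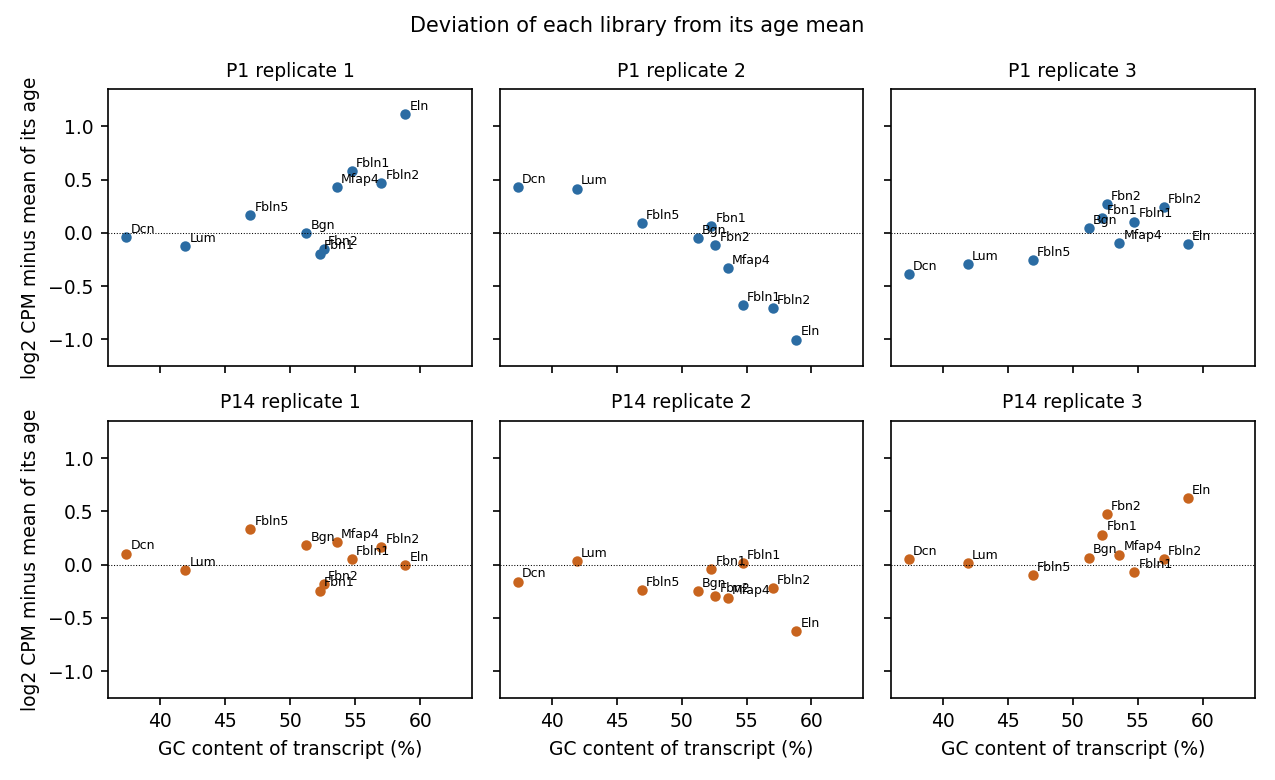
Deviation of log2 CPM from the mean of its age (y axis) against the GC content of each gene's longest transcript (x axis, percent), 1 panel per library. In P1 replicate 2 the genes run from 0.43 for Dcn down to −1.003 for Eln.

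In bulk tissue a change in the number of cells of a type and a change in RNA per cell cannot be told apart. Of 6 fibroblast markers Ddr2, a collagen receptor, rose by 0.93 on the log2 scale and Islr by 2.16, whereas Pdgfra, Tcf21, Dpt and Pcolce did not pass. The ages overlapped for Ddr2. Tcf21 was lower in every P14 library than in every P1 library (log2 fold change −0.63). The summed level of the 6 markers was 293 to 330 CPM at P1 and 346 to 444 CPM at P14. Relative to the geometric mean of these 6 markers in the same library, Mfap4 was higher at P14 by 1.49 on the log2 scale, Dcn by 0.85 and Fbln1 by 0.83, and Fbn2 lower, with a difference of −2.66, all without overlap between ages. The same difference was 0.22 for Eln, −0.07 for Fbn1, −0.19 for Fbln2, 0.01 for Lum and −0.15 for Bgn, each with overlap, and −0.67 for Fbln5 without overlap. For every member this difference lay below its own log2 fold change (Fbn1 −0.07 beside 0.46, Fbln5 −0.67 beside −0.15). The marker mean was thus itself higher at P14, with Islr the largest rise among the markers, and is not a constant reference. With 8 fibrillar collagens in place of the markers, the differences were 1.81 for Mfap4, 1.17 for Dcn, 1.15 for Fbln1 and −2.33 for Fbn2. That of Fbln5 shrank to −0.35, and those of Eln and Lum were 0.54 and 0.33. The sign turned for Fbn1 (0.25), Fbln2 (0.13) and Bgn (0.17). Fibroblast markers and members can be made by the same cells, so these ratios are descriptions.

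Markers of other cell types also moved with age. Of the 8 genes listed as ventricular cardiomyocyte markers 5 rose (Myh6, Tnnt2, Tnni3, Ryr2 and Pln), with overlap between ages for Ryr2. Actn2, Myl2 and Actc1 did not pass. Of the 4 genes listed as atrial markers Nppa and Myl4 fell, and Myl7 and Sln did not pass. Of 9 smooth muscle and pericyte markers 6 rose (Myh11, Tagln, Smtn, Rgs5, Pdgfrb and Kcnj8), Acta2 and Cnn1 fell and Cspg4 did not pass. Their summed level was 1790 to 2714 CPM at P1 and 1882 to 2330 at P14. Acta2 alone had 1458 to 2371 CPM at P1 and 999 to 1365 at P14, so this sum mostly follows Acta2 and hides the rises. Of 5 epicardial markers tested Krt19, Tbx18 and Aldh1a2 fell and Wt1 and Msln did not pass, and the list summed to 37.2 to 57.2 CPM at P1 and 16.1 to 22.9 at P14. Of 6 endothelial markers Tie1 rose and 5 did not pass (593 to 681 CPM at P1 and 593 to 666 at P14). Of 6 macrophage markers 5 rose (49.5 to 66.2 CPM at P1 and 192 to 226 at P14), and of 6 red blood cell markers 5 rose (466 to 979 and 2688 to 3587 CPM). Over all genes tested 21.8% were higher and 22% lower. No marker could be at 0 counts in all libraries, because no gene analysed has a total under 60. The epicardial Upk3b did not pass the filter on low counts and was not tested, but it is part of the sum. The part of these cells in the members' changes was not tested.

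Genes that build and cross-link the elastic fibre changed in both directions. Of 21 listed genes 18 were in the table and tested, of which 5 rose, 3 fell and 10 did not pass. The called share was 44.4%, beside 43.8% of all genes tested, and the median log2 fold change was 0.00. The rises included Adamtsl2, a fibrillin-binding protein, from 7.68 to 57.6 CPM (log2 fold change 2.91 ± 0.25), Ltbp4, a latent TGF-beta binding protein that takes part in elastic fibre assembly, from 66.2 to 268 CPM (2.02 ± 0.53), and Adamts10, which binds fibrillin-1, from 16.0 to 61.1 CPM (1.92 ± 0.28). Mfap5, a microfibril-associated glycoprotein, rose from 36.9 to 117 CPM and Loxl1, a lysyl oxidase relative, from 32.3 to 73.1 CPM. Of the other lysyl oxidases tested, Loxl3 did not pass (24.4 and 28.1 CPM, edgeR adjusted p = 0.444), Loxl2 fell from 97.7 to 38.0 CPM (−1.36 ± 0.21) and Lox from 15.6 to 7.94 CPM (−0.98 ± 0.28, edgeR adjusted p = 0.0123, but 0.0726 without P14 replicate 2). Thsd4, another fibrillin-binding protein, fell to 3.93 CPM at P14 (−1.06 ± 0.31, edgeR adjusted p = 0.0135, but 0.0661 without P14 replicate 1). For Ltbp4, which had 22.0 CPM in P1 replicate 2 beside 107 and 69.2 in the other P1 libraries, the call (edgeR adjusted p = 0.0200) ended without P1 replicate 3 (0.0652) or P14 replicate 3 (0.0654). Over all alternatives the lowest adjusted p was 4.55e-05 for Lox, 0.000106 for Thsd4 and 3.46e-05 for Ltbp4, and the highest are those given. The number that fell was 6 without P1 replicate 2, 5 with the replicate block, 7 with the correction for GC content and 8 with totals alone.

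Other small leucine-rich proteoglycans were higher or did not pass. Of 14 listed genes 7 were in the table, of which 4 rose, 0 fell and 3 (Fmod, Aspn and Ecm2) did not pass (edgeR). Their median log2 fold change was 0.74. The called share was 57.1%, beside 43.8% of all genes tested (21.8% higher and 22% lower). The 4 rises were Podn (podocan, from 0.612 to 10.2 CPM, log2 fold change 4.08 ± 0.36), Prelp, which anchors basement membranes to collagen (from 22.4 to 65.8 CPM), Tsku (from 2.59 to 4.80 CPM) and Ogn, or osteoglycin (from 30.3 to 50.8 CPM). At P1 Podn rested on 4 to 12 counts per library. The calls of Tsku and Ogn ended in 6 and 4 of 15 alternatives, and 2 genes of the list rose without P14 replicate 3. With totals alone 2 rose and 1 fell. Of 8 fibrillar collagens, the partners of these proteoglycans, Col5a3 rose from 6.67 to 48.4 CPM and Col11a2 from 0.561 to 1.88 CPM. Col11a1 fell from 5.35 to 0.704 CPM (1 to 11 counts per library at P14). The other 5 did not pass, among them Col1a1 (342 and 462 CPM) and Col3a1 (602 and 785 CPM). The called share of the 8 collagens was 37.5%, beside 43.8% of all genes tested.

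**Figure D5:**
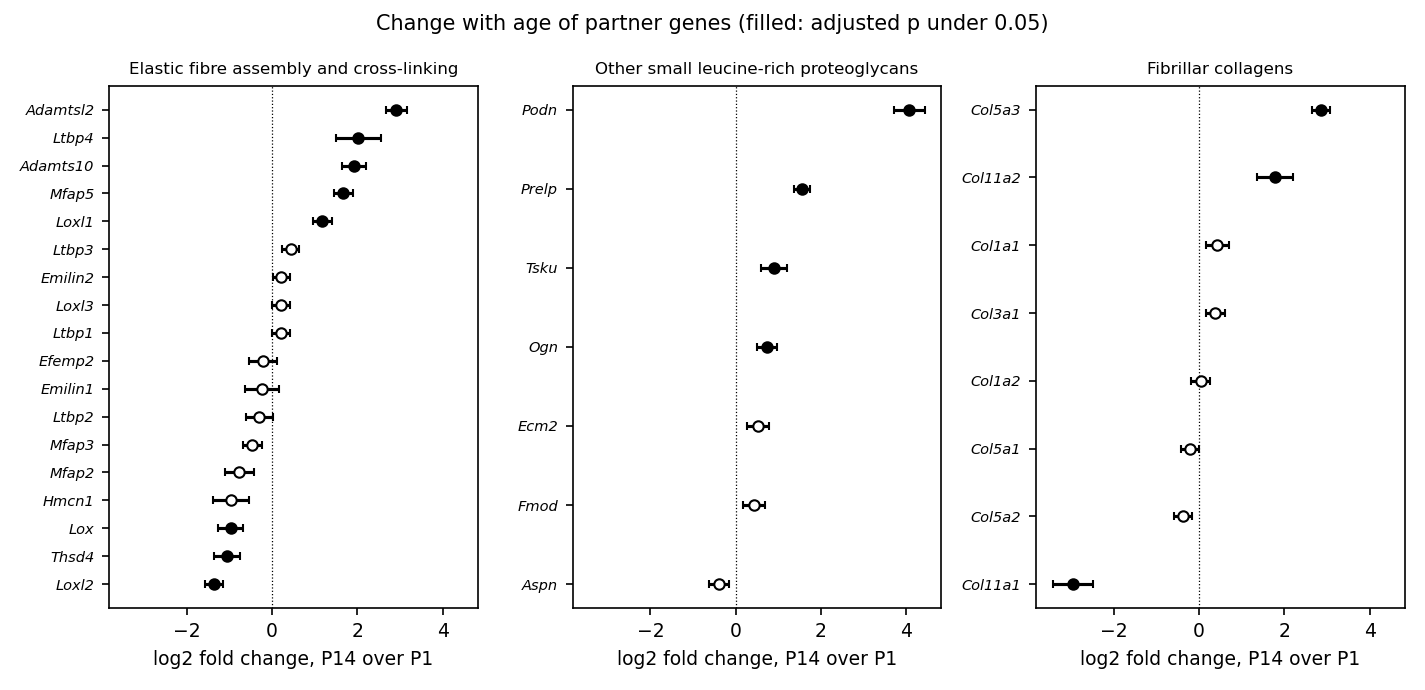
Log2 fold change of P14 over P1 with its SE for the tested genes of 3 lists (filled where the adjusted p is under 0.05). Adamtsl2 and Podn lie farthest to the right in their lists and Loxl2 and Col11a1 farthest to the left.

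By the rule fixed for naming similar patterns, the 3 tested genes with the highest Pearson correlation of log2 CPM over the 6 libraries are given for Eln, Fbn1 and Dcn. For Dcn these were Irf5 (r = 0.999), Pigb (0.997) and Itgbl1 (0.996), all of which rose. Closest to Fbn1 were Frem2 (0.993), Abca1 (0.991) and Egfr (0.988), which also rose. For Eln they were Gm12700 (0.986), Gm12247 (0.985) and Cand2 (0.978), none of which passed the test. Low levels limit Gm12700 (0.934 CPM at P1 and 1.27 at P14), Gm12247 (0.655 and 1.05) and Itgbl1 (0.999 and 4.06). Over 6 libraries in 2 groups such correlations are shared by many genes that differ with age, which does not cover the genes named for Eln. Each set of 3 genes was picked as the highest among all tested genes, so high values can follow from that choice alone, also for Eln. All these correlations are a description with no p. Among the members themselves the closest pairs were Fbln1 with Mfap4 (r = 0.943) and Dcn with Lum (0.922), and the most opposed pair was Fbn2 with Dcn (−0.930).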

How the data were processed

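The values analysed are raw read counts that the authors deposited for each gene in 6 libraries. Per the labels' protocols, poly(A)-selected RNA was sequenced for 36 cycles on a Genome Analyzer IIx. The submitters' processing notes name the genome build GRCm38 (mm10), bedtools and edgeR 3.2.4. The aligner, counting program and strand setting were not given in the sources used here. No gene has a total under 60, so genes with fewer counts are not analysed here.

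Columns were tied to samples by the age and replicate number in their names. Analyses used R 4.3.3, edgeR 4.0.16 and DESeq2 1.42.0. Genes were filtered with filterByExpr (minimum count 10, 194 removed), scaled by TMM and tested for P14 against P1 with edgeR's robust quasi-likelihood F-test, two-sided, with Benjamini-Hochberg adjustment over 14301 genes and a threshold of 0.05. Standard errors are the fitted coefficient over the square root of F. Log2 ratios of counts within a library were compared with an exact permutation test, and ratios to marker genes used a prior count of 0.5. Depth ran from 5916557 to 17353933 counts, so 1 count was worth 0.0463 to 0.168 CPM.

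Alternatives were DESeq2 size factors, totals alone, upper quartile scaling, no filter, DESeq2, the replicate number as a block, leaving out mitochondrially encoded genes or each library, and, added after the data were seen, a spline correction for transcript GC content and length (4 degrees of freedom each) without and with the block. Replicates carry the numbers 1 to 3 in both ages' labels. Deviations of same-numbered libraries from their age means had r = 0.295, 0.112 and 0.102, each above the 0.1 set by rule. Differently numbered libraries had r from −0.214 to 0.090 (P1 replicate 2 with P14 replicate 3). The lowest same-number values barely exceed 0.1, and deviations within an age sum to 0. These values therefore cannot establish that the numbers pair the libraries, and the block is given only as an alternative. Positions and transcripts came from GENCODE M21 (GRCm38), in which 14320 of 14495 identifiers were found. Named genes are all members, the called genes of each partner list with the 3 largest changes per direction, and part of the marker genes. The other marker genes enter only through the counts and sums of their lists. Also named are the 3 genes closest in pattern to each of Eln, Fbn1 and Dcn. Mfap5, Loxl1, Ogn, Fmod, Aspn, Ecm2, Col1a1 and Col3a1 were named after their values were seen. The same holds for Loxl3, Chpf2, Fam20b, Chst14, Mmp2, Ctsl and Ctss. The members and lists were chosen with earlier results of these data known.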

Additional observations from a re-analysis of the deposited data

How the results depend on the processing

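The directions and calls of Mfap4, Dcn, Fbln1 and Fbn2 held in all 15 alternatives, with log2 fold changes of 1.53 to 2.24, 0.85 to 1.61, 0.81 to 1.60 and −2.56 to −1.95. The number of members that rose was 5 instead of 3 with the correction for GC content and length, against 26.6% of all genes tested. It was also 5 when that was combined with the replicate block, against 27.7%. When each library was left out in turn it was 3 to 5 (5 without P1 replicate 2, against 23.9%). With the replicate block alone 4 members rose and 1 fell, Lum being the added call, and it changed no other member's call. Beside it 48.9% of all genes were called. Signs turned for Fbln2 (−0.18 with totals alone, −0.024 to 0.50 when each library was left out, the negative value without P1 replicate 2, −0.097 with the GC correction and −0.084 with that and the replicate block), Bgn (−0.068 with totals alone) and Fbln5 (0.060 with the GC correction and 0.040 with that and the replicate block), none of them called in the main test; the cause was not tested. The Eln to Fbn1 ratio differed between ages by 0.29 on the log2 scale and by −0.24 to 0.94 when libraries were left out. Of 27 called partner genes 11 lost the call in at least 1 of 15 settings and 0 changed direction. With totals alone 8 genes of elastic fibre assembly and 3 fibrillar collagens fell and 2 genes of chondroitin and dermatan sulphate synthesis rose, against 3, 1 and 4, while 2 other small leucine-rich proteoglycans rose, against 4, and 1 fell, against 0. The number of these that rose was also 2 without P14 replicate 3. In the GC correction 2 collagens and 7 assembly genes fell, and with the block added 2 collagens fell, 1 rose and 6 assembly genes fell; the block alone gave 5 and the set without P1 replicate 2 gave 6 such assembly genes. Without P1 replicate 3 or P14 replicate 2, 3 chondroitin and dermatan sulphate genes fell, against 5. Over all genes 4656 to 6710 were called when libraries were left out, against 6264. Depth limits Podn, Col11a2, Col11a1 and Mmp12, each of which rests on 13 or fewer counts per library at 1 age.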

Other observations

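Decorin and biglycan carry chains of chondroitin or dermatan sulphate. Of 16 tested enzymes that build these chains 4 rose, 5 fell and 7 did not pass (edgeR), with a median log2 fold change of −0.29. The called share was 56.2%, beside 43.8% of all genes tested (21.8% higher and 22% lower). Chpf, a chondroitin polymerising factor, rose from 6.58 to 21.8 CPM, the sulphotransferase Chst12 from 1.72 to 4.93 CPM and the linker enzyme B3gat3 from 28.5 to 58.3 CPM, as did Chpf2. Falls were those of the epimerase Dse, which turns chondroitin into dermatan sulphate (from 8.96 to 3.46 CPM), the sulphotransferase Chst11 (from 11.6 to 5.15 CPM), Csgalnact1 (from 4.72 to 2.32 CPM), Chst14, a dermatan sulphotransferase (from 8.61 to 4.87 CPM), and Fam20b (from 66.8 to 37.9 CPM). The calls of Chpf2, B3gat3, Csgalnact1 and Chst14 ended in 2, 3, 4 and 4 of 15 alternatives.

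Of 6 tested proteases known to degrade elastin or to act on the matrix around it 0 rose, 3 fell and 3 (Mmp2, Ctsl and Ctss) did not pass (edgeR). The called share was 50%, beside 43.8% of all genes tested (21.8% higher and 22% lower). Mmp14 fell from 44.3 to 24.3 CPM, the collagenolytic and elastolytic cathepsin Ctsk from 12.4 to 6.99 CPM, and the macrophage elastase Mmp12 from 1.65 to 0.109 CPM, with 7 to 47 counts per library at P1 and 0 to 2 at P14. The call of Ctsk ended without P14 replicate 2 or P14 replicate 3 (edgeR adjusted p = 0.119 and 0.0837, from 0.000366 to 0.119 over all alternatives).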
